A study of Mus musculus with 7 samples.

Results

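The miR-181 family was examined in 7 small RNA libraries of mouse testis. All rows of the deposited miRNA table whose names begin with miR-181a, miR-181b, miR-181c or miR-181d were taken, which gave 7 of the 331 listed mature miRNAs. In the table they carry the mouse prefix, as mmu-miR-181a-5p, mmu-miR-181c-5p and mmu-miR-181c-3p, which is left out from here on. They comprised miR-181a-5p, miR-181b-5p, miR-181c-5p, miR-181d-5p, miR-181a-1-3p, miR-181b-1-3p and miR-181c-3p. The testes came from CD1 mice, an outbred strain. T6 and T10 were 6.5 and 10.5 dpp (days post-partum) testes taken without culture, and TAD was an uncultured adult testis of 2 months. T6-12K and T6-12A were 6.5 dpp testes, and T10-12K and T10-12A 10.5 dpp testes, cultured for 12 days on agarose at the gas-liquid interface at 34 ºC with 5% CO2. A second label field gives both prepuberal ages rounded down to whole days. K stands for KSR, a serum replacement, and A for AlbuMAX I, a lipid-rich bovine serum albumin. According to the labels, the uncultured testes each came from a mouse. The number of animals behind a cultured library is not given in the sources used here. Each condition had 1 library, so no difference below was tested against variation between animals, and every interval covers counting error only.

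miRNAs are cut from RNA hairpins. Either arm of the hairpin, named 5p or 3p, can be loaded into an Argonaute protein, and bases 2 to 8 of the loaded arm, the seed, guide it to messenger RNAs. The miR-181 family is conserved among vertebrates and is best known from lymphocyte development, where miR-181a tunes signalling by the T cell receptor. In the testis, miRNAs come both from germ cells and from somatic cells such as Sertoli, Leydig and peritubular cells. A whole testis library mixes them all, so fewer cells of a type and less RNA per cell cannot be told apart.

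The sequences show what the members share. All 7 were found among the RefSeq mature miRNAs on GRCm38.p6, and they are given 5′ to 3′ with the seed in capitals, 5p arms first.
miR-181a-5p: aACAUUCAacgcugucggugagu
miR-181b-5p: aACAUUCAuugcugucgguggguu
miR-181c-5p: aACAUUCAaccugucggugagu
miR-181d-5p: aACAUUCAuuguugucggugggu
miR-181a-1-3p: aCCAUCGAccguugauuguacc
miR-181c-3p: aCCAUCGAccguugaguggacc
miR-181b-1-3p: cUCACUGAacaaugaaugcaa

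The 4 arms named 5p carried 1 common seed, and no other listed miRNA of the 288 with a RefSeq sequence had it. miR-181a-1-3p and miR-181c-3p shared a second seed, and miR-181b-1-3p had one of its own. Beyond the seed, the 5p arms fell into 2 look-alike pairs. miR-181b-5p and miR-181d-5p differed by the substitution C12U, with positions counted from 1 at the 5′ end of miR-181b-5p, and by 1 base at the 3′ end. miR-181a-5p and miR-181c-5p differed by 1 inner base that miR-181c-5p lacks. The 2 arms with the second seed differed by the substitutions G16U and G19U, counted from miR-181c-3p to miR-181a-1-3p. The number of mismatches allowed in the alignment, and how a read matching more than 1 miRNA was counted, are not given in the sources used here. Reads may therefore have been exchanged within each look-alike pair.

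The genome arranges the family differently. In GENCODE release M21 on GRCm38, the 6 hairpins lie in 3 pairs, each with a hairpin of the a or c type beside one of the b or d type. Mir181a-1 (chromosome 1, 137966455 to 137966541, plus strand) and Mir181b-1 (137966639 to 137966718) are 97 bases apart, in an exon of the long non-coding RNA A430106G13Rik. Their nearest coding gene is Ptprc, the leukocyte antigen CD45, 96320 bases from Mir181a-1. Mir181a-2 (chromosome 2, 38852735 to 38852810, plus strand) and Mir181b-2 (38853830 to 38853918) are 1019 bases apart, opposite to an intron of Nr6a1, which encodes germ cell nuclear factor. Mir181c (chromosome 8, 84178873 to 84178961, minus strand) and Mir181d (84178716 to 84178787) are 85 bases apart, in an intron of Nanos3 on the same strand. Nanos3 encodes an RNA-binding protein that primordial germ cells need to survive.

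The RefSeq hairpins of miR-181a are printed to show which products can be traced to a locus, with the mature arms in capitals.
Mir181a-1: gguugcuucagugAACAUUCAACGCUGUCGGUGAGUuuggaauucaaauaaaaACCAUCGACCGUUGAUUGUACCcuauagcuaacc
Mir181a-2: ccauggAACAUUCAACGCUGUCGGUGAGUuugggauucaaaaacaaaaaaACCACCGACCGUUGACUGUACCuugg
Both give the same miR-181a-5p, and likewise miR-181b-5p comes from both chromosome 1 and chromosome 2. The 3p arms differ between the copies, and the listed miR-181a-1-3p and miR-181b-1-3p belong to chromosome 1. The 3p arms of the chromosome 2 copies and of Mir181d are not among the listed mature miRNAs.

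The deposited values were divided by the worth of 1 read in each library, which gave whole reads. Reads on listed miRNAs numbered between 7075528 and 13397407 in the prepuberal and cultured libraries, but 1628770 in TAD, where low levels are least precise. Levels are given as CPM, the reads of a miRNA in each 1000000 reads that its library had on listed miRNAs. CPM depends on the other miRNAs of a library, and the median of all listed miRNAs is therefore given beside each comparison. T6-12K stood apart from its partner, since the median log2 ratio of T6-12A to T6-12K was 0.64 over 321 miRNAs, against -0.020 for T10-12A to T10-12K. Markers of late germ cells (miR-34c-5p, miR-34b-5p and miR-449a-5p, all 3 listed) summed to 71.8 CPM in T6, 158 in T10, between 593 and 1918 in culture and 25221 in TAD. The gonadal miR-202 arms, 2 of 2 listed, summed to between 93.7 and 234 CPM in the 7 libraries.

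The family accounted for 2.25% of listed miRNA reads in T6 and 2.07% in T10. In culture its share was 1.07% with KSR and 1.89% with AlbuMAX I from 6.5 dpp, and 1.07% and 0.990% likewise from 10.5 dpp, and it was 1.13% in TAD. T6-12A was the cultured library closest to the prepuberal testes, and T10-12A had the lowest share. The 5p arms supplied between 98.7% and 99.3% of the family's reads in every library. All 7 members were above 0 in all 7 libraries.

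miR-181a-5p was the most abundant member and ranked between 8 and 13 among all listed miRNAs. Its level was 18066 CPM in T6, 16928 in T10, 8795 (KSR) and 15813 (AlbuMAX I) after culture from 6.5 dpp, 9077 (KSR) and 8453 (AlbuMAX I) after culture from 10.5 dpp, and 10032 in TAD. The prepuberal testes and T6-12A were high, and the other 4 libraries lay between 8453 and 10032 CPM. From the highest to the lowest library the level differed 2.14-fold, the narrowest range of the 7 members.

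miR-181c-5p followed with 1917 CPM in T6, 2001 in T10, 1186 (KSR) and 1849 (AlbuMAX I) after culture from 6.5 dpp, 908 (KSR) and 847 (AlbuMAX I) after culture from 10.5 dpp, and 602 in TAD. Here T10 was highest and TAD lowest, a 3.32-fold range. Each 10.5 dpp culture lay below both 6.5 dpp cultures.

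miR-181b-5p was measured at 1478 CPM in T6, 1104 in T10, 443 (KSR) and 771 (AlbuMAX I) after culture from 6.5 dpp, 457 (KSR) and 358 (AlbuMAX I) after culture from 10.5 dpp, and 390 in TAD. Among the 4 lowest libraries, T6-12K and T10-12K could not be ordered, as their 95% intervals (430 to 456 and 441 to 473 CPM) overlapped, and neither could T10-12A and TAD (346 to 371 and 361 to 422 CPM). miR-181d-5p had 690 CPM in T6, 482 in T10, 199 (KSR) and 312 (AlbuMAX I) after culture from 6.5 dpp, 163 (KSR) and 149 (AlbuMAX I) after culture from 10.5 dpp, and 134 in TAD. The interval of T10-12A (141 to 157 CPM) overlapped those of T10-12K and TAD. Both members were highest in T6 and then in T10, and T6-12A was the highest culture. miR-181d-5p had a 5.16-fold range, wider than the 4.12-fold range of miR-181b-5p.

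Among the 3p arms, miR-181a-1-3p and miR-181c-3p were nearly equal in T6, with 145 and 148 CPM and overlapping intervals. miR-181a-1-3p then stood at 117 CPM in T10, 66.7 (KSR) and 83.4 (AlbuMAX I) after culture from 6.5 dpp, 72.5 (KSR) and 59.6 (AlbuMAX I) after culture from 10.5 dpp, and 97.0 in TAD. miR-181c-3p stood at 92.2 CPM in T10, 24.9 (KSR) and 41.6 (AlbuMAX I) after culture from 6.5 dpp, 23.7 (KSR) and 24.3 (AlbuMAX I) after culture from 10.5 dpp, and 31.3 in TAD. The interval of TAD overlapped that of every culture, and apart from T6-12A the intervals of the cultures also overlapped each other. Away from T6 the 2 arms with the same seed thus separated, and miR-181a-1-3p had between 1.27 and 3.10 reads for each read of miR-181c-3p in the other 6 libraries. miR-181b-1-3p was rare, with 101 reads in T6, 61 in T10, 61 (KSR) and 69 (AlbuMAX I) after culture from 6.5 dpp, 7 (KSR) and 31 (AlbuMAX I) after culture from 10.5 dpp, and 6 in TAD. The 6 reads in TAD stood for 3.68 CPM with a 95% Wilson interval from 1.69 to 8.04, which overlapped the intervals of all 6 other libraries. T10-12K had 0.989 CPM (0.479 to 2.04).

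**Figure D1:**
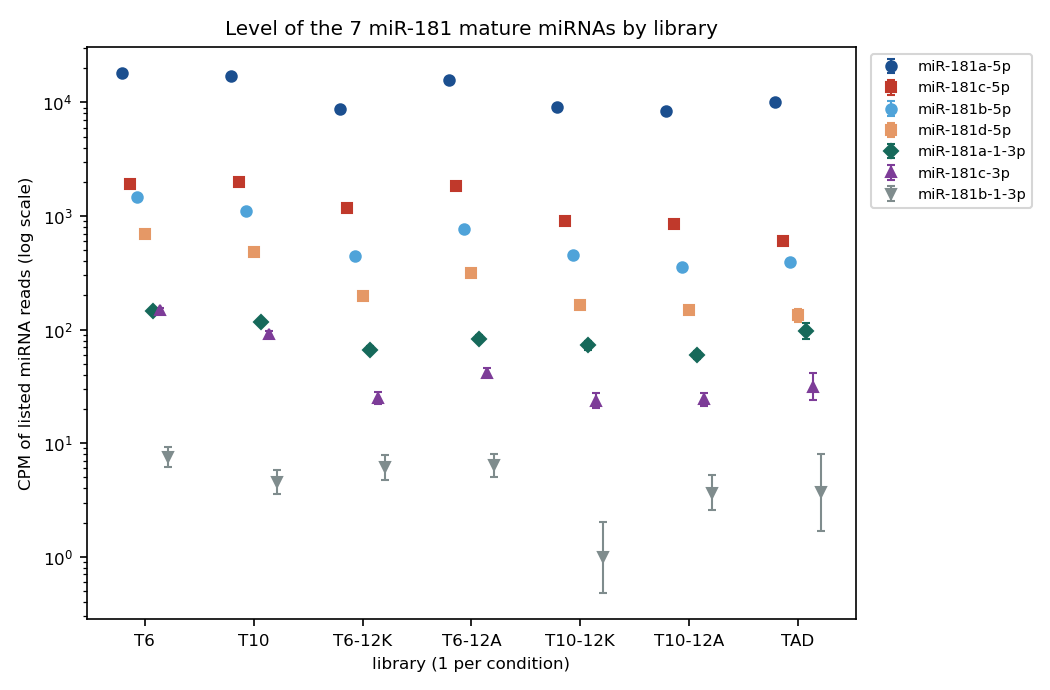
Level of each miR-181 member (CPM of listed miRNA reads, log axis) in the 7 libraries, with 95% Wilson intervals for counting error. miR-181a-5p lies between 7.41 and 16.7 times above miR-181c-5p, the next member, all 4 arms named 5p are lower in T10-12K, T10-12A and TAD than in T6 and T10, and the intervals of miR-181b-1-3p are wide.

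Ratios between members within a library do not depend on how libraries are scaled to each other. Ligation during library preparation can favour a sequence, so a ratio is not a molar ratio, but its change between libraries can be compared. miR-181a-5p and miR-181b-5p are products of neighbouring hairpins. The library with the fewest reads of miR-181a-5p for each read of miR-181b-5p was T6, with 12.2 (95% interval from 12.0 to 12.4), followed by T10 with 15.3 (15.1 to 15.6). The cultured libraries had 19.9 with KSR and 20.5 with AlbuMAX I from 6.5 dpp, and 19.9 and 23.6 likewise from 10.5 dpp, and TAD had 25.7 (23.7 to 27.8). All 4 cultures thus lay between the prepuberal testes and the adult testis in this ratio, although the interval of T10-12A (22.7 to 24.5) overlapped that of TAD.

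The neighbours miR-181c-5p and miR-181d-5p also differed in proportion between libraries. There were 2.78 reads of miR-181c-5p for each of miR-181d-5p in T6 (2.71 to 2.84) and 4.15 in T10 (4.04 to 4.27). The cultures had 5.95 with KSR and 5.93 with AlbuMAX I from 6.5 dpp, and 5.56 and 5.70 likewise from 10.5 dpp, with overlapping intervals. TAD, at 4.50 (3.89 to 5.21), lay below all 4 cultures and overlapped T10. The lowest culture exceeded the highest uncultured library 1.23-fold.

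The pair from different chromosomes, miR-181b-5p and miR-181d-5p, held its proportion most closely. The ratio was 2.14 in T6, 2.29 in T10, 2.22 (KSR) and 2.47 (AlbuMAX I) after culture from 6.5 dpp, 2.79 (KSR) and 2.41 (AlbuMAX I) after culture from 10.5 dpp, and 2.92 in TAD. It differed 1.36-fold between the extremes, against 2.10-fold for miR-181a-5p to miR-181b-5p and 2.14-fold for miR-181c-5p to miR-181d-5p. These are also the look-alikes that differ by C12U, and what part read exchange has in this was not tested. The other look-alikes, miR-181a-5p and miR-181c-5p, did not hold their proportion as closely. Their ratio was lowest in T6-12K, with 7.41 (7.27 to 7.56), and lay between 8.46 and 10.0 in T6, T10 and the other cultures. In TAD it was 16.7 (15.6 to 17.8), so the adult testis stood apart from the 6 other libraries, with a 2.25-fold range overall.

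**Figure D2:**
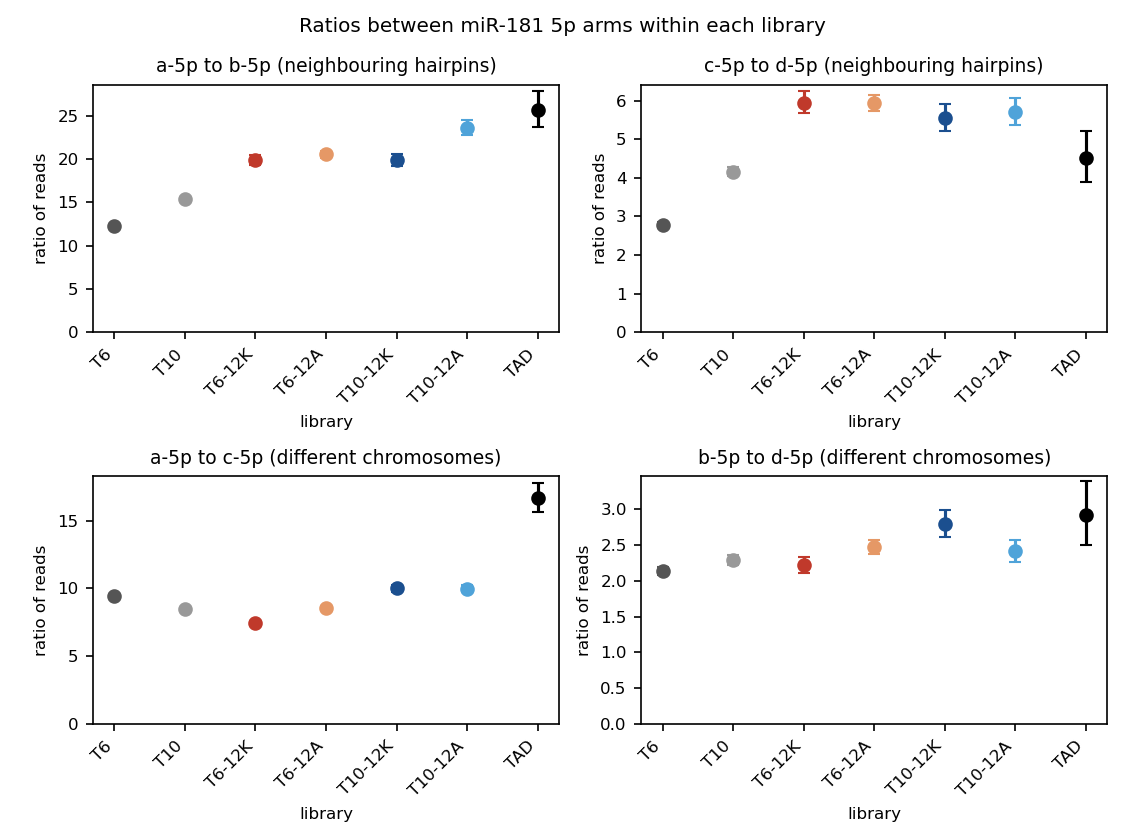
Reads of one 5p arm for each read of another (linear axes from 0) in each of the 7 libraries, with 95% counting intervals. The ratio of a-5p to b-5p ranges from 12.2 in T6 to 25.7 in TAD, c-5p to d-5p is highest in the 4 cultures, a-5p to c-5p is highest in TAD, and b-5p to d-5p stays between 2.14 and 2.92.

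The 2 arms of the Mir181c hairpin are cut from the same transcript. In T6 there were 13.0 reads of miR-181c-5p for each read of miR-181c-3p (12.4 to 13.6), and in T10 21.7 (20.5 to 22.98). After culture the ratio was 47.7 with KSR (42.1 to 54.1) and 44.5 with AlbuMAX I (40.5 to 48.8) from 6.5 dpp, and 38.2 with KSR (32.8 to 44.6) and 34.9 with AlbuMAX I (30.4 to 40.1) from 10.5 dpp. In TAD it was 19.2 (14.5 to 25.5), resting on 51 reads of the 3p arm. The 4 cultured libraries lay above all 3 uncultured libraries, the lowest culture exceeding the highest uncultured library 1.61-fold. Without T6-12K the cultured libraries still lay between 34.9 and 44.5. From T6 to T6-12K the ratio differed 3.68-fold. miR-181c-5p is the look-alike of the more abundant miR-181a-5p, and what part read exchange has in this ratio was not tested.

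Both arms of 17 hairpins, including Mir181c and Mir181a-1, had at least 50 reads in every library. Among these the 5p to 3p ratio of Mir181c had the third widest range, after miR-423 with 9.98-fold, named here after its value was seen, and miR-202 with 8.66-fold, while the median range was 1.90-fold. In 5 of the 17 hairpins (29.4%) the cultured and uncultured libraries did not overlap, and Mir181c was among the 5. Mir181a-1 was not. The ratio of miR-181a-5p to miR-181a-1-3p was 124 in T6, 144 in T10, 132 (KSR) and 190 (AlbuMAX I) after culture from 6.5 dpp, 125 (KSR) and 142 (AlbuMAX I) after culture from 10.5 dpp, and 103 in TAD, a 1.83-fold range. Since miR-181a-5p also comes from chromosome 2, this is not a ratio within 1 hairpin.

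**Figure D3:**
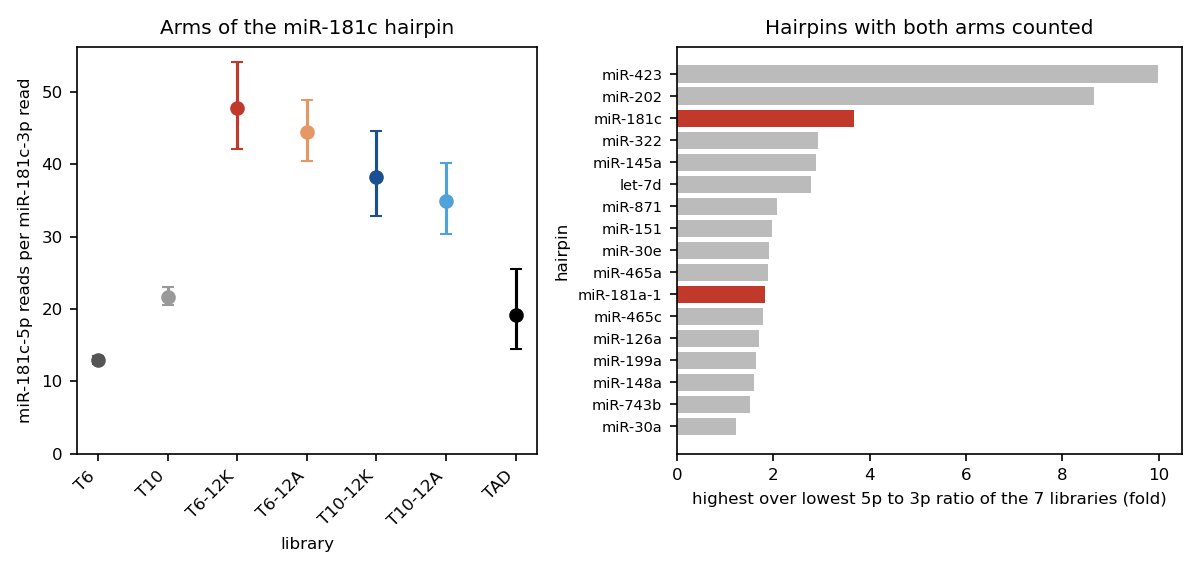
Left, reads of miR-181c-5p for each read of miR-181c-3p in the 7 libraries with 95% counting intervals; right, the highest over the lowest 5p to 3p ratio for the 17 hairpins with at least 50 reads on both arms in every library, miR-181 in red. The 4 cultures lie between 34.9 and 47.7 and the uncultured libraries between 13.0 and 21.7, and Mir181c takes the third place of 17.

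The likeness of 2 members was measured as the root mean square difference of their log2 CPM over the 7 libraries, after each was centred on its own mean. Of the 21 pairs, miR-181b-5p and miR-181d-5p were closest, at 0.15, and for each of them the other was the closest of 251 miRNAs above 0 in all libraries. The second pair, at 0.25, was miR-181a-5p with miR-181a-1-3p. The arms of Mir181c were far apart, at 0.65. miR-181c-3p was instead closer to miR-181d-5p, its neighbour on chromosome 8, at 0.32, and to miR-181b-5p, at 0.34. miR-181b-1-3p was at least 0.77 from every other member, a value that includes the counting error of 6 and 7 reads.

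**Figure D4:**
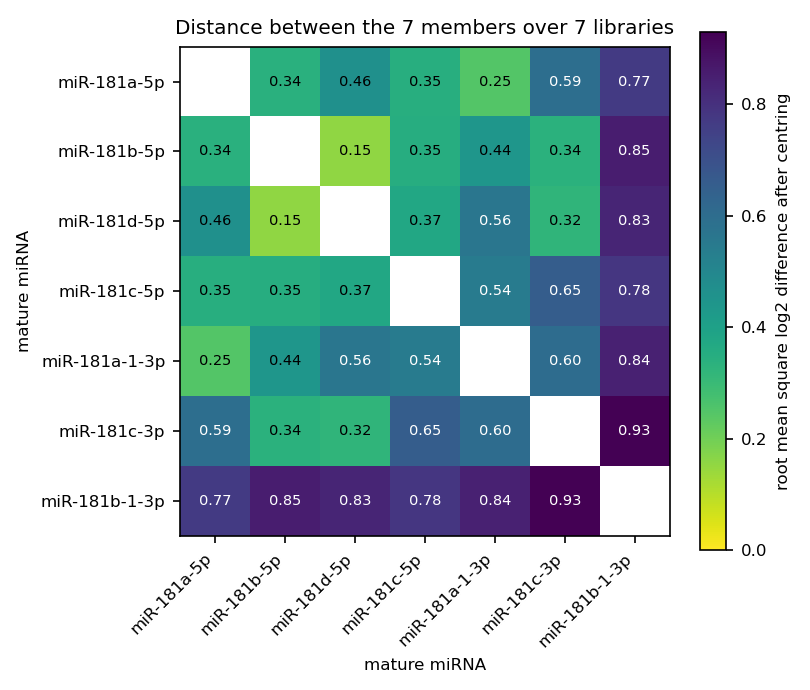
Root mean square difference of centred log2 CPM over the 7 libraries for the 21 pairs of members, on a linear color scale from 0. miR-181b-5p and miR-181d-5p are closest with 0.15, and miR-181b-1-3p is far from all other members.

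Outside the family, the miRNAs most like miR-181a-5p were let-7a-5p (0.19), let-7c-5p (0.21) and let-7b-5p (0.23). Those most like miR-181c-5p were miR-199a-3p and miR-199b-3p (both 0.25), which share their mature sequence, and miR-152-3p (0.27). After miR-181d-5p, let-7c-5p (0.28) and miR-28a-5p (0.29) were closest to miR-181b-5p. miR-181d-5p was followed by miR-214-3p (0.30) and miR-434-3p (0.32). The nearest to miR-181a-1-3p were miR-99a-3p (0.17), miR-676-5p (0.18) and miR-676-3p (0.20), and those to miR-181c-3p were miR-672-5p (0.25) and miR-322-3p (0.27), ahead of miR-181d-5p. miR-127-5p, the nearest to miR-181b-1-3p, was as far as 0.72.

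Differences between conditions were then read against all listed miRNAs. From 6.5 to 10.5 dpp without culture, 6 of 7 members were lower and miR-181c-5p was slightly higher. The log2 ratios of T10 to T6 were -0.09 for miR-181a-5p, 0.06 for miR-181c-5p, -0.42 for miR-181b-5p, -0.52 for miR-181d-5p, -0.31 for miR-181a-1-3p, -0.68 for miR-181c-3p and -0.73 for miR-181b-1-3p. The direction of miR-181c-5p depended on the scaling, with -0.17 when library sizes came from the trimmed mean of M-values. No member reached 2-fold, against 4.29% of 326 miRNAs at least 2-fold lower and 11.0% at least 2-fold higher. The median over all miRNAs was -0.06.

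After culture from 6.5 dpp, miR-181c-3p, miR-181d-5p and miR-181b-5p were furthest below the uncultured testis. In T6-12K against T6, 5 of 7 members were at least 2-fold lower and none 2-fold higher, where 57.1% of 329 miRNAs were lower and 10.9% higher. The median of all miRNAs was -1.21 in CPM and that of the members -1.12, close to each other. Among the members, miR-181c-3p had a log2 ratio of -2.57 (95% interval from -2.76 to -2.38), miR-181d-5p of -1.79, miR-181b-5p of -1.74 and miR-181c-5p of -0.69, which turned to 0.29 by median-of-ratios size factors and 0.31 by the trimmed mean of M-values. miR-181b-1-3p was nearest to T6, at -0.30 (-0.76 to 0.16). In T6-12A against T6, 2 of 7 members were at least 2-fold lower and none higher, beside 37.9% lower and 12.4% higher of 330 miRNAs. These 2 were miR-181c-3p, at -1.83 (-1.98 to -1.68), and miR-181d-5p, at -1.15. The median was -0.63 over all miRNAs and -0.80 over the members. miR-181a-5p and miR-181c-5p had -0.19 and -0.05, and both stood at 0.24 or above with median-of-ratios size factors or the trimmed mean of M-values. By either of these scalings 1 member was past 2-fold in T6-12K and 1 in T6-12A.

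In culture from 10.5 dpp, 5 of 7 members were at least 2-fold lower with either supplement and none was 2-fold higher. In T10-12K against T10, 40.1% of 329 miRNAs were lower and 8.21% higher by this measure, with a median of -0.76 over all and -1.27 over the members. In T10-12A against T10, 41.4% of 331 were lower and 10.6% higher, with medians of -0.78 and -1.24. miR-181c-3p had log2 ratios of -1.96 (-2.19 to -1.72) and -1.93 (-2.14 to -1.71) in this order, miR-181d-5p of -1.56 and -1.70, and miR-181b-5p of -1.27 and -1.62. miR-181a-5p, with -0.90 and -1.002, stood near the median of all miRNAs. The 5 members with KSR included miR-181b-1-3p, at -2.20 (-3.33 to -1.07) from 7 reads, and the 5 with AlbuMAX I included miR-181a-5p, which was just past 2-fold. By median-of-ratios size factors fewer members passed 2-fold, 3 with KSR and 3 with AlbuMAX I. The trimmed mean of M-values gave 2 and 1. In the values as deposited, and likewise in reads compared directly, 7 passed it with KSR and 6 with AlbuMAX I. In both of these settings the median of all miRNAs was itself more than 2-fold lower. With KSR it was -1.09 as deposited and -1.68 in reads, and with AlbuMAX I -1.08 and -1.44. By median-of-ratios size factors it was -0.21 with either supplement, and by the trimmed mean of M-values 0.002 and -0.010. The share of all miRNAs past 2-fold was counted in CPM only.

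The scaling shifts all these values. The median of all miRNAs in T6-12K against T6 was -1.21 in CPM, -0.22 by median-of-ratios size factors, -0.88 on the deposited scale, -0.20 after scaling by the trimmed mean of M-values, and -1.64 when reads were compared directly. miR-181c-3p was at least 2-fold lower in all 4 cultures than in their starting testes under all of these scalings, with log2 ratios of -1.16 or below. miR-181b-5p and miR-181d-5p were lower in all 4 cultures under each scaling, though not always 2-fold. The share of all miRNAs meeting either joint order was not counted. In single comparisons in CPM, between 37.9% and 57.1% of all miRNAs were at least 2-fold lower in a culture than in its starting testis. In CPM, 6 of 7 members were lower in every culture than in T6 and T10, beside 57.7% of all 331 miRNAs. The exception was miR-181b-1-3p. By median-of-ratios size factors 3 members met this order, beside 27.8% of all miRNAs, and by the trimmed mean of M-values 1 did, beside 21.1%.

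The cultures were then compared by starting age. In CPM, 4 of 7 members were lower in both 10.5 dpp cultures than in both 6.5 dpp cultures, which held for 12.7% of 324 miRNAs. These were miR-181c-5p, miR-181d-5p, miR-181c-3p and miR-181b-1-3p. For miR-181c-3p and miR-181b-1-3p, however, T6-12K and T10-12A could not be ordered beyond counting error, as their 95% intervals overlapped. The intervals were 21.9 to 28.2 and 21.2 to 27.8 CPM for miR-181c-3p. For miR-181b-1-3p they were 4.78 to 7.89 and 2.58 to 5.21 CPM. All 7 members met this order with median-of-ratios size factors, the trimmed mean of M-values, the values as deposited and reads compared directly, beside 18.8%, 21.9%, 31.2% and 26.9% of all miRNAs. With T6-12A as the only 6.5 dpp culture, that is without T6-12K, all 7 also met it in CPM, beside 45.7% of all miRNAs. The late germ cell markers named above were between 593 and 1423 CPM in the 6.5 dpp cultures and between 1781 and 1918 CPM in the 10.5 dpp cultures, and their part in this was not tested.

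In the adult testis, the members separated. Against T6, 5 of 7 members were at least 2-fold lower in TAD, beside 37.9% of 330 miRNAs lower and 26.4% higher. Against T10 it was 4 of 7, beside 34.5% lower and 17.6% higher. No member was 2-fold higher. The fifth against T6 was miR-181b-1-3p, at -1.04 (-2.22 to 0.15) from 6 reads. miR-181d-5p had log2 ratios of -2.37 (-2.56 to -2.17) to T6 and -1.85 (-2.04 to -1.65) to T10, miR-181c-5p of -1.67 and -1.73, miR-181b-5p of -1.92 and -1.50, and miR-181c-3p of -2.24 and -1.56. miR-181a-5p, at -0.85 and -0.75, and miR-181a-1-3p, at -0.58 and -0.27, stayed nearer to the medians of all miRNAs, -0.41 and -0.38. All 7 members were lower in TAD than in both prepuberal libraries in CPM, as were 54.4% of all 331 miRNAs, but the intervals of miR-181b-1-3p included 0. All 7 were lower in the other scalings too, beside 51.4% of all miRNAs by median-of-ratios size factors and 91.5% when reads were compared directly. Against T10, however, miR-181a-1-3p was near 0, with -0.07 by median-of-ratios size factors and -0.10 by the trimmed mean of M-values. Its interval in CPM was -0.51 to -0.04. The share of miR-181a-5p in the family's reads was accordingly highest in TAD, with 88.9% against 80.5% in T6.

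**Figure D5:**
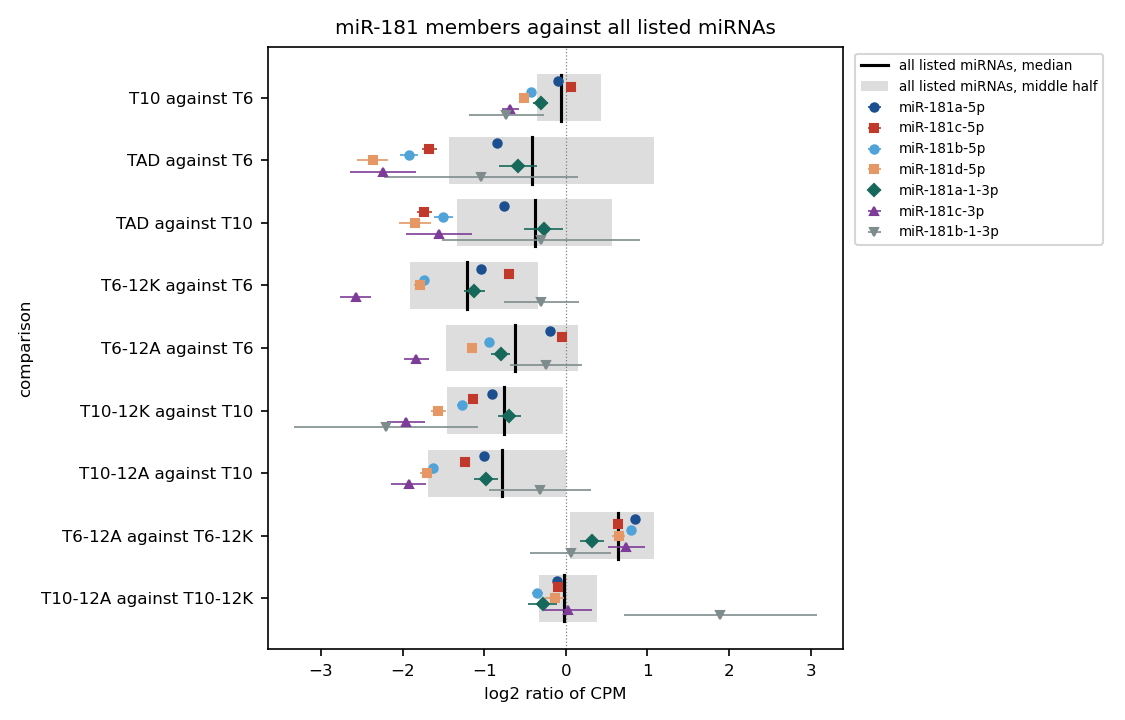
Log2 ratio of CPM of each miR-181 member in 9 comparisons, with 95% counting intervals; the grey bar spans the interquartile range of all listed miRNAs and the black line is their median. miR-181c-3p, miR-181d-5p and miR-181b-5p lie below the median in the 4 comparisons of a culture with its starting testis, and miR-181a-5p, miR-181c-5p and miR-181b-1-3p lie above it in those from 6.5 dpp. In T6-12A against T6-12K the members lie between 0.06 and 0.85, with the median of all miRNAs at 0.64.

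The supplements were compared at each starting age. In T6-12A against T6-12K the log2 ratios were 0.85 for miR-181a-5p, 0.80 for miR-181b-5p, 0.64 for miR-181c-5p, 0.65 for miR-181d-5p, 0.74 for miR-181c-3p and 0.32 for miR-181a-1-3p (below 0 by median-of-ratios size factors and the trimmed mean of M-values), and 0.06 (-0.44 to 0.56) for miR-181b-1-3p. The median of the members, 0.65, matched that of all miRNAs, 0.64. No member reached 2-fold, while 27.4% of 321 miRNAs were at least 2-fold higher and 5.92% lower. In T10-12A against T10-12K the 4 arms named 5p had, in the same order, log2 ratios of -0.10, -0.35, -0.10 and -0.14, and miR-181c-3p and miR-181a-1-3p of 0.03 (-0.26 to 0.33) and -0.28, with a median of all miRNAs of -0.020. When reads were compared directly, miR-181a-5p, miR-181c-5p and miR-181d-5p were instead above 0. By the same fold, 5.64% of 319 miRNAs were higher and 5.64% lower. The 1 member past 2-fold was miR-181b-1-3p, at 1.89 (0.71 to 3.07), from 7 and 31 reads.

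The hairpins of the mir-23a cluster lie on the strand opposite to Mir181c, 29556 bases from it, and 5 of the 6 mature miRNAs on its list were present. They summed to 125 CPM in T6, 185 in T10, between 226 and 266 in culture and 186 in TAD. Their median log2 ratio was 0.71 in T6-12K and 0.73 in T6-12A against T6, and 0.55 in T10-12K and 0.69 in T10-12A against T10. miR-27a-3p, the most abundant of them, stood at 69.1 CPM in T6, 110 in T10, between 112 and 139 in culture and 114 in TAD. The cluster median was thus above 0 in the 4 comparisons of a culture with its starting testis, where both Mir181c arms were below 0 in CPM, miR-181c-5p by only -0.05 in T6-12A. The difference was not tested, nor was it tested whether all reads of these 5 miRNAs came from this cluster.

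Markers of other cell types were also summed. Of 5 leukocyte miRNAs 2 were present, miR-142a-5p and miR-150-5p, and they summed to between 5.54 and 12.2 CPM in the prepuberal and cultured libraries and to 45.4 CPM in TAD. miR-150-5p was at 0 in T6-12K, T10-12K and T10-12A, where the sum was miR-142a-5p alone. The defining erythroid miRNAs miR-451a and miR-144-3p summed to 10.3 CPM in T6, 13.7 CPM for T10 and 6.75 CPM for TAD, and were at 0 in all 4 cultures. In TAD they had only 6 and 5 reads. Both endothelial arms of miR-126a were present and summed to between 124 and 249 CPM in culture, 190 in T6, 180.9 in T10 and 405 in TAD. The mesenchymal sum was almost all miR-143-3p, which had 103729 CPM in T6, 145909 in T10, between 156675 and 212659 in culture and 258115 in TAD. Each of the 3 other mesenchymal miRNAs was instead lower in all 4 cultures and in TAD than in T6 and T10. The median log2 ratio of these 4 miRNAs was -0.86 in T6-12K and -0.68 in T6-12A against T6, -1.01 in T10-12K and -0.97 in T10-12A against T10, and -0.89 in TAD against T6. Of the early germ cell miRNAs 2 of 12 were present, miR-293-5p and miR-295-3p, with sums of 30.2 CPM in T6, 18.7 in T10, between 6.24 and 8.99 in culture and 39.9 in TAD. In the 4 cultures the erythroid and early germ cell sums were below, and the late germ cell sum above, those of both prepuberal libraries, while the mesenchymal miRNAs differed in direction as given, and their part in the differences above was not tested.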

How the data were processed

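Small RNA was sequenced from 7 testis samples. According to the study's methods, reads freed of adaptors passed a FastQC check, Bowtie placed them on mm10, miRBase 21 gave the miRNAs, and those with under 50 reads were dropped. Values as low as 5 reads in a library remain. The submitters' processing notes also name HTSeq and DESeq. The authors deposited a scaled signal per miRNA and library, and the 7 files of single libraries were identical to the table of the series. The signal was divided by the worth of 1 read, estimated from the low values of each library. In all libraries 100% of the values below 10000 reads were then whole within 0.05 reads. A value of 0 was set to 5 reads where a log2 ratio needed it. The design assumed counts recoverable in this way.

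The members and lists were chosen with earlier results of these data known. With 1 library per condition no test was made. The members named are those listed, with the 3 closest miRNAs of each, the mir-23a cluster and at most 3 members of each marker list. Intervals are 95% Wilson intervals for CPM and 95% intervals on the log scale for ratios, both for counting error only. A fold of 2 was the threshold. Alternatives were median-of-ratios size factors, the trimmed mean of M-values (trimming 30% by M, then 5% by A), the values as deposited, reads compared directly, a fold of 1.5, a mean of at least 100 CPM and pseudocounts. The steps were tested on simulated data. The versions were matplotlib 3.10.9, scipy 1.17.1, pandas 2.3.3, numpy 2.4.6 and Python 3.11.15, and mature sequences and positions came from RefSeq (GRCm38.p6) and GENCODE M21.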

Additional observations from a re-analysis of the deposited data

Results flagged for a closer look

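For 5 of the 7 members, AlbuMAX I and KSR differed in opposite directions at the 2 starting ages, beyond counting error, in CPM. Subtracting the log2 ratio of AlbuMAX I to KSR of the 10.5 dpp cultures from that of the 6.5 dpp cultures gave 0.95 for miR-181a-5p, 0.74 for miR-181c-5p, 1.15 for miR-181b-5p, 0.78 for miR-181d-5p and 0.60 for miR-181a-1-3p. The difference was not tested, as each combination of age and supplement was a single library. In CPM, opposite directions, whether or not beyond counting error, were found for 151 of 316 listed miRNAs (47.8%). By this looser rule the members with opposite directions were the same 5. The median log2 ratio over all miRNAs was itself 0.64 in the 6.5 dpp cultures. The 4 arms named 5p kept opposite directions with median-of-ratios size factors, the trimmed mean of M-values and the values as deposited. miR-181a-1-3p did not by the first 2 of these. The share of all miRNAs with opposite directions was counted in CPM only. When reads were compared directly, miR-181a-5p, miR-181c-5p and miR-181d-5p were higher with AlbuMAX I at both ages.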

How the results depend on the processing

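No paired analysis was possible because each condition had 1 library. Counts of members past 2-fold changed by more than 1.5 times in these settings. With median-of-ratios size factors they were 1 in T6-12K and 1 in T6-12A against T6, and 3 in T10-12K and 3 in T10-12A against T10. By the trimmed mean of M-values the same 4 counts were 1, 1, 2 and 1. In the values as deposited there were 3 in T6-12K against T6 and 7 in TAD against T10. When reads were compared directly there were 4 in T6-12A against T6 and 7 in TAD against T10. In TAD against T10 the median of all miRNAs was itself -1.12 as deposited and -3.42 in reads. It was -0.88 as deposited in T6-12K against T6, and -0.94 in reads in T6-12A against T6. The share of all miRNAs past 2-fold was counted in CPM only, and none was counted at a fold of 1.5. With a fold of 1.5 there were 2 in T10 against T6, 4 in T6-12A against T6 and 5 in T6-12A against T6-12K. Among the 4 members with a mean of at least 100 CPM there were 3 in TAD against T6, 3 in T6-12K against T6, 1 in T6-12A against T6, 3 in T10-12K against T10 and 0 in T10-12A against T10-12K. A pseudocount of 1 CPM changed no such count by more than 1.5 times, and 1 read added to both arms left the ratios within their intervals. For the orders of the cultures, alternatives chosen after the data were seen gave 3 and 1 members below T6 and T10 in every culture with median-of-ratios size factors and the trimmed mean of M-values, and 7 members lower in both 10.5 dpp cultures under each of the 4 other scalings and without T6-12K. No log2 ratio past 2-fold changed sign. Of the 63 ratios, 8 changed sign with median-of-ratios size factors, 10 with the trimmed mean of M-values, 3 in the values as deposited and 3 in reads compared directly. The depth of TAD limits miR-181b-1-3p, with 6 reads, and miR-181c-3p, with 51.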
